A study of Mus musculus with 16 samples.

Results

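The microRNA (miRNA) genes from miR-379 to miR-410 form a cluster inside the imprinted Dlk1-Dio3 locus on mouse chromosome 12, in the region of the non-coding gene Mirg. Members were taken by name from the array annotation, and 41 of the 611 mouse miRNAs on the array belong to the cluster. They come from 30 hairpins that span 34.7 kb, 16 as the 5p arm and 25 as the 3p arm. Carotid arteries came from female C57BL/6 mice with the genotype ApoE-/-, which lack apolipoprotein E and develop atherosclerosis, on a western-type diet. In the injured groups a wire had damaged the artery, and the vessel was taken 1, 7 or 14 days later (n = 3 each) or at day 28 (n = 4). Uninjured carotid arteries of the same genotype (n = 3) were the control. All groups therefore share the ApoE deletion, and the labels give an age of 8 weeks for day 1 and of 6 to 8 weeks for the other groups. Whole vessel RNA (700 ng) was hybridized to 1 array per sample, so that fewer cells of a type and less miRNA per cell cannot be told apart.

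Imprinted genes are read from the chromosome of only one parent. Here the miRNAs come from the maternal chromosome, cut from a long primary transcript that carries many hairpins, while the protein genes Dlk1, Rtl1 and Dio3 of the same locus are read mainly from the paternal one. In adult animals the cluster is best known from brain and neurons, and it is also active in the embryo, the placenta and mesenchymal cells. One hairpin can give a mature miRNA from each arm, and an asterisk marks the arm held to be the minor one when the array was designed. A mature miRNA recognises its targets largely through its seed, bases 2 to 8.

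The sequences below are those of members with a called difference that is described below, with close relatives (miR-376b beside miR-376a, miR-381 beside miR-300). The seed is in capitals, and sequences and positions are from RefSeq on GRCm38.p6, plus strand, which held 38 of the 41 mature sequences. Entries were missing for miR-376c, miR-485 and miR-487b, and the prefix mmu (mouse) is left out of names in the text.
mmu-miR-379: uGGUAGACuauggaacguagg
mmu-miR-411: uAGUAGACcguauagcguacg
mmu-miR-299*: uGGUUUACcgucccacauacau
mmu-miR-299: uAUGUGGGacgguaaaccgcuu
mmu-miR-377: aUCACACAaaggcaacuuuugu
mmu-miR-494: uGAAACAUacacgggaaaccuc
mmu-miR-154: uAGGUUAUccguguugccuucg
mmu-miR-154*: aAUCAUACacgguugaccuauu
mmu-miR-323-3p: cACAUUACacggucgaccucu
mmu-miR-541: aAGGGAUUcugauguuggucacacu
mmu-miR-376a: aUCGUAGAggaaaauccacgu
mmu-miR-376b: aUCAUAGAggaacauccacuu
mmu-miR-300: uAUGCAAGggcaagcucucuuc
mmu-miR-381: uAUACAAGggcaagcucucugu

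The cluster opens with mature miR-379 at chr12:109709065-109709085 and ends with mature miR-410 at chr12:109743764-109743784. miR-411 lies at chr12:109710190-109710210, miR-299* at chr12:109710644-109710665 and miR-299 at chr12:109710676-109710697. miR-494 lies at chr12:109715367-109715388 and miR-377, near the other end, at chr12:109740553-109740574. The 38 sequences carried 38 distinct seeds, so that no seed was shared, but 6 pairs of seeds differed by 1 base. One such pair is miR-379 and miR-411, which rose together below. Another is miR-300 and miR-381, which matched at 19 of 22 bases (86.4%), and miR-376b and miR-376a, another pair, matched at 18 of 21 (85.7%). Probes for such close relatives may share signal, and cross-hybridization was not tested.

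Not every member could be measured. Each array's signals were divided by a 75th percentile, taken over 395 mouse probes detected well above background throughout, then floored and put on a log2 scale, so that 0 is that percentile and -5.79 is the floor. Probes of different miRNAs differ in brightness, so a level is compared only with the same miRNA on other arrays. Of the 41 members 21 were well above background on all 16 arrays, namely miR-154, miR-299*, miR-300, miR-329, miR-369-5p, miR-376a, miR-376b, miR-376c, miR-377, miR-379, miR-381, miR-382, miR-409-3p, miR-409-5p, miR-410, miR-411, miR-485, miR-485*, miR-487b, miR-494 and miR-495. Another 12 passed on all arrays of 1 or more groups and were tested too, which makes 33 tested members. Of these, miR-134, miR-300*, miR-376a* and miR-541 were tested only through day 7, the 1 group in which every array detected them. The remaining 8 were not tested: miR-369-3p, miR-380-5p, miR-412, miR-496, miR-539, miR-666-5p and miR-668 lay at the floor on all 16 arrays, and miR-667 was well above background on 3. miR-134, known for its role in the dendritic spines of neurons, was at the floor on the 13 arrays of the other groups and had a median intensity of 7.45 units. Since a member that entered through the group where it was high had to differ, counts are also given for the 21 members detected throughout.

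The arrays lay on 2 slides, with day 1, day 7 and day 28 replicates 1 and 2 on slide 1 and uninjured, day 14 and day 28 replicates 3 and 4 on slide 2. Day 7 against day 1 and day 14 against uninjured therefore compare arrays of 1 slide, whereas day 1 and day 7 differ from uninjured in slide as well. For that reason results with slide as a block (the blocked fit) are given as well, although the block rests on the 4 arrays of day 28 and raised the median standard error at day 1 from 0.24 to 0.37. The 75th percentile used for scaling ran from 401 to 1432 intensity units. Tests are limma's moderated tests over all 321 tested miRNAs, a call is an adjusted p under 0.05, and the number of arrays limits the precision. The labelled artery was checked against marker miRNAs. The endothelial miR-126-3p and the smooth muscle miR-143 and miR-145 were well above background on every array. The other listed markers of these cell types on the array, miR-126-5p and miR-145*, lay at the floor throughout. Of 5 leukocyte markers 4 were called higher than in uninjured arteries on each of the 4 days. In the blocked fit the leukocyte count was 2 for day 1, 3 for day 7 and 4 for each later day.

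The data show a rise of a part of the cluster at day 7. Of the 33 tested members 18 were higher than in uninjured arteries and 1 was lower, while 27.4% of all 321 tested miRNAs were called higher and 49.8% were called in either direction. Among the 21 members detected throughout, 10 were higher and 0 lower, against 26.5% higher and 51.1% in either direction among the 219 miRNAs detected throughout. Of all tested miRNAs 22.4% were lower. The median difference was log2 1.00 over the tested members and 0.00 over all tested miRNAs. When slide was a block, 8 members, miR-541 among them, were higher and 0 lower (all tested, 16.5% higher, 12.1% lower and 28.7% in all), and the median difference was 0.51. Of the 21 detected throughout 5 were then higher and 0 lower, against 35 higher and 26 lower (61 in all) among the 219. The arrays of 19 members were wholly apart, 17 upward and 2 downward, as were those of 61.4% of all tested miRNAs. Without day 7 replicate 2 the count of called members went from 19 to 12. The heat map of members by array shows the rise as a band of higher signal over the first 10 hairpins and a few further ones, with the last hairpins near the uninjured level.

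**Figure D1:**
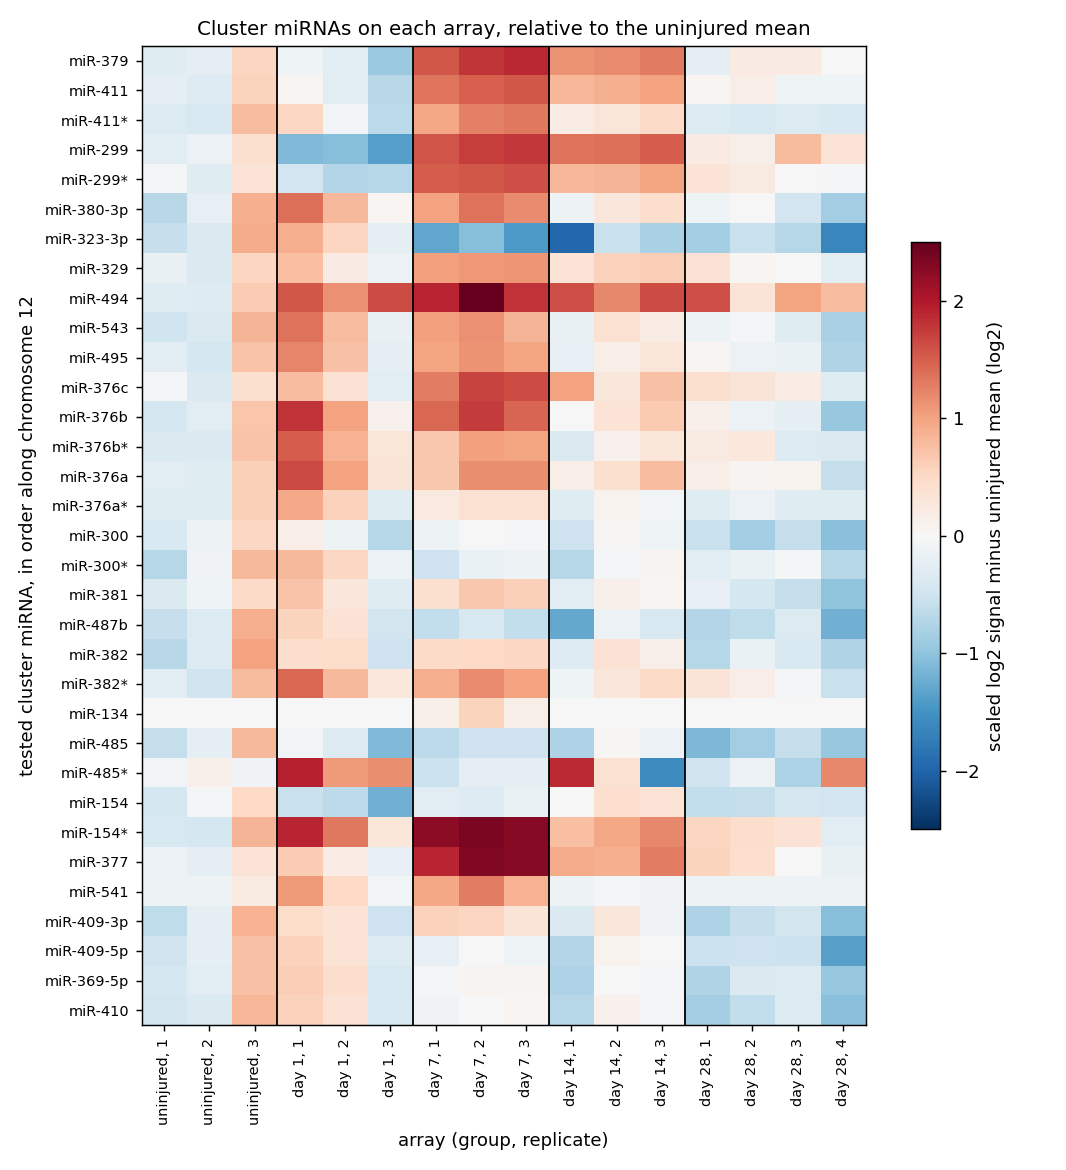
Each row is 1 of the 33 tested cluster miRNAs in chromosomal order, each column 1 of the 16 arrays, and the colour gives the scaled log2 signal minus the mean of the 3 uninjured arrays. Day 7 is highest for miR-379, miR-411, both arms of miR-299, miR-377 and miR-154*, while uninjured replicate 3 stands above the other uninjured arrays for almost every member.

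miR-379, the first miRNA of the cluster, was higher at day 7 and day 14. Its scaled log2 signal was -1.67, -1.60 and -0.83 on the uninjured arrays, -1.46, -1.65 and -2.28 at day 1, and 0.19, 0.43 and 0.52 at day 7. It was -0.23, -0.18 and -0.07 at day 14 and -1.58, -1.16, -1.15 and -1.37 at day 28. All day 7 and day 14 arrays lay above every other array, and day 28 overlapped the uninjured range. Against uninjured it was 3.35-fold higher at day 7 (log2 1.74 ± 0.24 SE, adjusted p = 5.40e-05; with slide as a block 1.85, adjusted p = 0.00391). At day 14 it was 2.31-fold higher (log2 1.21 ± 0.24 SE, adjusted p = 0.00141). Between day 1 and day 7, both on slide 1, it rose 4.52-fold (log2 2.18 ± 0.24 SE, adjusted p = 1.55e-05; 7.97e-04 when slide 1 was fitted alone). From day 14 to day 28 it fell by 1.16 ± 0.22 (SE) on the log2 scale (adjusted p = 0.00467).

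miR-411, whose seed is 1 base away from that of miR-379, had the same order of groups. It stood at -3.19, -3.29 and -2.40 in uninjured arteries, at -2.91, -3.24 and -3.65 at day 1 and at -1.63, -1.46 and -1.40 at day 7. The day 14 arrays gave -2.13, -2.08 and -1.95 and those of day 28 -2.91, -2.80, -3.06 and -3.06. Day 7 and day 14 again lay above all other arrays. The difference from uninjured was log2 1.46 ± 0.22 (SE) at day 7 (adjusted p = 1.25e-04; 1.26 and 0.0196 in the blocked fit) and 0.91 ± 0.22 (SE) at day 14 (adjusted p = 0.00616; 0.0524 within slide 2 alone), and that from day 1 to day 7 was 1.77 ± 0.22 (SE, adjusted p = 4.25e-05). Its other arm, miR-411*, was higher at day 7 too (log2 1.17 ± 0.31 SE, adjusted p = 0.00597; 0.107 with slide as a block) but not called at day 14 (log2 0.32 ± 0.31 SE, adjusted p = 0.474).

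Both arms of the miR-299 hairpin, number 3 in the cluster, went down first and then up. miR-299 was at -4.43, -4.31 and -3.77 in uninjured arteries, -5.28, -5.23 and -5.54 at day 1 and -2.59, -2.45 and -2.40 at day 7. It was at -2.82, -2.79 and -2.65 at day 14 and at -3.97, -4.02, -3.38 and -3.82 at day 28. Thus the 3 day 1 arrays were the lowest of all 16, and day 7 and day 14 the highest. At day 1 miR-299 lay near the floor of -5.79 and was well above background on 2 of 3 arrays. The sizes of its fall at day 1 and of its rise from day 1 are therefore uncertain. The fall at day 1 was 1.18 ± 0.19 (SE) on the log2 scale (adjusted p = 4.84e-04), a call lost with slide as a block (log2 -0.78, adjusted p = 0.121) or with the mean over its 4 probes (log2 0.00, adjusted p = 1). From day 1 to day 7, both on slide 1, miR-299 rose 7.34-fold (log2 2.88 ± 0.19 SE, adjusted p = 4.53e-07; 1.86e-04 when slide 1 was fitted alone). Its difference from uninjured was log2 1.69 ± 0.19 (SE) at day 7 (adjusted p = 1.12e-05; 2.09 and 2.74e-04 in the blocked fit) and 1.42 ± 0.19 (SE) at day 14 (adjusted p = 9.41e-05).

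miR-299*, detected on every array, gave the same order of groups. Its values were -1.94, -2.22 and -1.57 in uninjured arteries, -2.39, -2.65 and -2.63 for day 1 and -0.39, -0.35 and -0.29 for day 7. Day 14 gave -1.08, -1.06 and -0.93, and day 28 gave -1.56, -1.68, -1.90 and -1.96. Day 1 lay below and day 7 above all other arrays. The fall at day 1 (log2 -0.65 ± 0.16 SE, adjusted p = 0.008) was also called with slide as a block (log2 -0.96, adjusted p = 0.0235), the 1 call among the members that held at day 1 in that fit. A second probe, detected on all arrays, differed by -0.21 at day 1. The rise from day 1 to day 7 was 4.64-fold (log2 2.21 ± 0.16 SE, adjusted p = 4.53e-07), and day 14 lay 0.89 ± 0.16 (SE) above uninjured (adjusted p = 7.64e-04). In the mean of the day 14 arrays it was lower than at day 7 (log2 -0.68 ± 0.16 SE, adjusted p = 0.0206), but with slide as a block that difference was -0.37 (adjusted p = 0.711). That call was also lost without day 7 replicate 2, day 7 replicate 3, day 14 replicate 1 or day 14 replicate 2.

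miR-377, which lies 31.45 kb from the miR-379 hairpin, followed the same days without the fall at day 1. The uninjured arrays gave -3.31, -3.39 and -2.83, day 1 -2.53, -2.99 and -3.38, and day 7 -1.26, -0.86 and -0.90. The values were -2.25, -2.29 and -1.90 at day 14 and -2.62, -2.75, -3.18 and -3.35 at day 28. Day 7 lay apart from all other groups, and day 14 lay above uninjured, day 1 and day 28. At day 7 the difference from uninjured was 4.49-fold (log2 2.17 ± 0.25 SE, adjusted p = 1.14e-05; with slide as a block 1.59, adjusted p = 0.00453), and at day 14 it was 2.04-fold (log2 1.03 ± 0.25 SE, adjusted p = 0.00563). The step down from day 7 to day 14 was 1.14 ± 0.25 (SE) on the log2 scale (adjusted p = 0.0173), and it was lost with slide as a block (log2 -0.56, adjusted p = 0.711) and without day 7 replicate 2 or day 14 replicate 2.

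miR-494 belongs to the miRNAs of this locus that have been studied in blood vessel growth, as do miR-329, miR-495 and miR-487b. It was higher than in uninjured arteries at each of the 4 days. The uninjured values were -3.94, -3.95 and -2.99, those of day 1 -2.07, -2.49 and -2.00, and those of day 7 -1.73, -1.06 and -1.82. Day 14 gave -2.01, -2.42 and -2.00, and day 28 gave -2.01, -3.30, -2.65 and -2.86. Every array of day 1, day 7 and day 14 lay above every uninjured one, whereas day 28 overlapped them. The differences from uninjured were log2 1.44 ± 0.34 (SE) at day 1 (adjusted p = 0.00537), 2.09 ± 0.34 (SE) at day 7 (adjusted p = 1.94e-04; 2.00 and 0.0168 in the blocked fit), 1.48 ± 0.34 (SE) at day 14 (adjusted p = 0.00346) and 0.92 ± 0.31 (SE) at day 28 (adjusted p = 0.0465). With slide as a block the day 1 and day 28 calls ended (log2 1.34 and 0.87, adjusted p = 0.195 and 0.152). The day 28 call was kept in 3 of 16 fits that each left out 1 array, those without uninjured replicate 3, day 7 replicate 2 or day 28 replicate 2.

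The plot of 8 members by group sets these time courses beside miR-154* and beside miR-410, the last miRNA of the cluster.

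**Figure D2:**
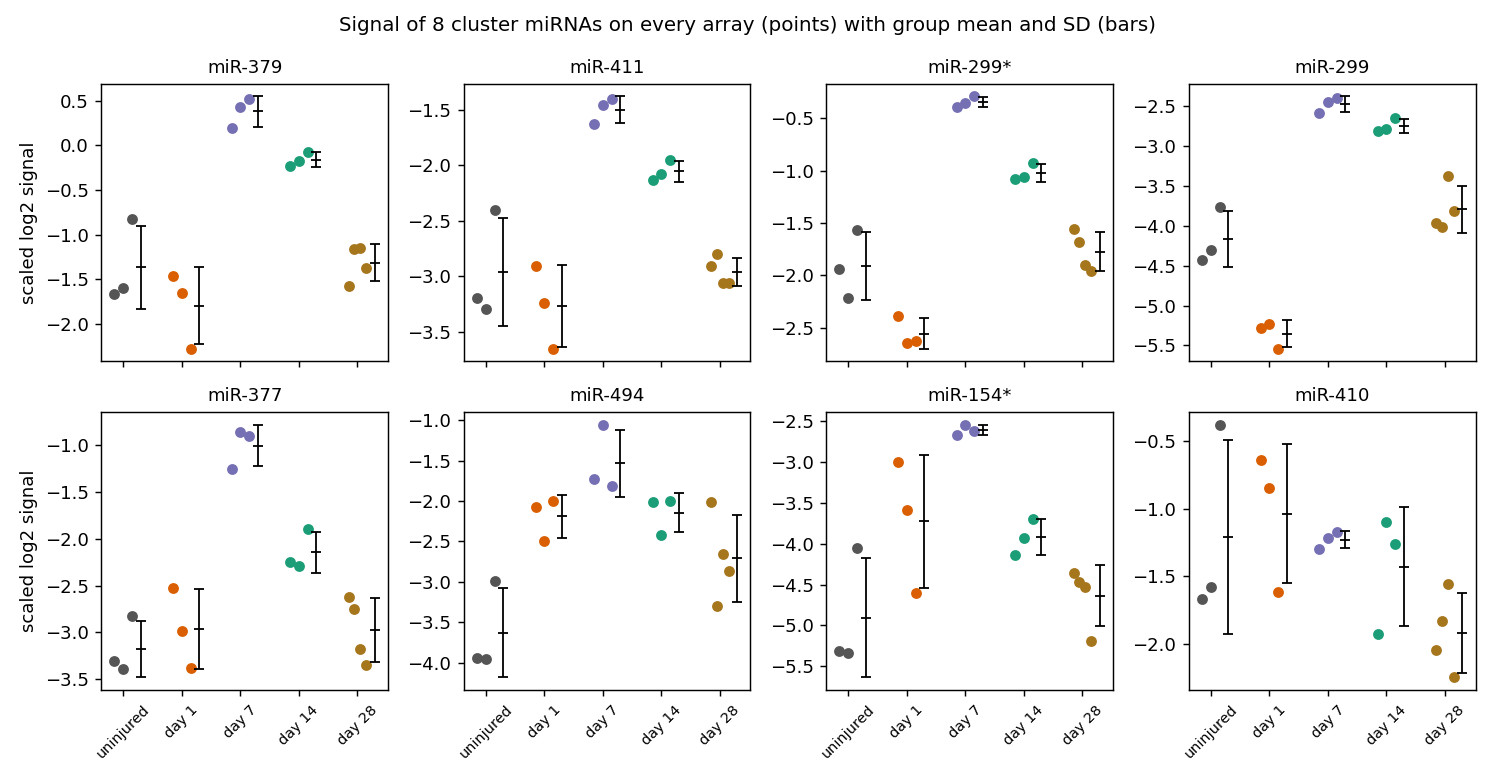
Scaled log2 signal of 8 cluster miRNAs on every array (points, 3 per group and 4 at day 28), with the group mean and SD as bars; each panel has its own axis range. miR-379, miR-411, miR-299*, miR-299 and miR-377 have day 7 and day 14 above uninjured, day 1 and day 28. For miR-410 every injured group overlaps uninjured, and day 28 lies below day 7.

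The arms of the miR-154 hairpin differed in size of change more than those of any other hairpin tested at day 7, and no test between arms was made. miR-154* was at -5.31, -5.34 and -4.06 in uninjured arteries, where 1 of 3 arrays detected it, at -3.00, -3.59 and -4.60 at day 1 and at -2.67, -2.55 and -2.62 at day 7. It was at -4.14, -3.93 and -3.70 at day 14 and at -4.36, -4.47, -4.53 and -5.19 at day 28. The day 7 arrays lay above all others, and those of day 1 overlapped the uninjured ones. At day 7 miR-154* was log2 2.29 ± 0.39 (SE) above uninjured (adjusted p = 3.20e-04; with slide as a block 1.85, adjusted p = 0.0447). At day 1 it was log2 1.17 ± 0.39 (SE) above uninjured (adjusted p = 0.0375), a call lost with slide as a block (log2 0.73, adjusted p = 0.544) and in 5 of 16 fits without 1 array, namely those without uninjured replicate 1, uninjured replicate 2, day 1 replicate 1, day 1 replicate 2 or day 7 replicate 2. The rise from day 1 to day 7 was log2 1.11 ± 0.39 (SE, adjusted p = 0.0359; 0.0561 when slide 1 was fitted alone).

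miR-154, from the 5p arm, gave -0.16, 0.23 and 0.77 in uninjured arteries, -0.27, -0.38 and -0.93 at day 1 and 0.01, -0.05 and 0.12 at day 7. It gave 0.29, 0.70 and 0.62 at day 14 and -0.34, -0.32, -0.14 and -0.20 at day 28. Day 1 lay below uninjured, and day 7 lay within the uninjured range. Its difference from uninjured was log2 -0.80 ± 0.22 (SE) at day 1 (adjusted p = 0.015; -0.64 with slide as a block, adjusted p = 0.32) and -0.25 ± 0.22 (SE) at day 7 (adjusted p = 0.392). A second miR-154 probe, also well above background on all 16 arrays, differed by 0.44 from uninjured at day 7 and by -0.07 at day 1, against -0.25 and -0.80 for the brighter one. The day 1 call also ended without day 1 replicate 3 (highest adjusted p over the fits without 1 array, 0.0597). From day 14 to day 28 it fell by 0.79 ± 0.21 (SE) on the log2 scale (adjusted p = 0.0222; -0.71 with slide as a block, adjusted p = 0.12). That call was lost without day 14 replicate 2, day 14 replicate 3 or day 28 replicate 2.

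miR-323-3p was the 1 member called lower at day 7. It was at -4.39, -4.19 and -2.89 in uninjured arteries, -2.92, -3.29 and -4.07 at day 1, and -5.12, -4.88 and -5.25 at day 7. At day 14 it was at -5.79, -4.37 and -4.64, the first of these at the floor, and at day 28 at -4.66, -4.37, -4.54 and -5.45. Day 7 lay wholly below uninjured and below day 1. The difference from day 1 to day 7 was log2 -1.66 ± 0.46 (SE, adjusted p = 0.0101). Against uninjured it was -1.26 ± 0.46 (SE, adjusted p = 0.0339; -1.74 with slide as a block, adjusted p = 0.0992), a call that ended without uninjured replicate 3 or any 1 of the 3 day 7 arrays.

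The miR-376 family, whose primary transcripts are known for RNA editing within the seed, lies near the middle of the cluster. miR-376a gave -2.89, -2.91 and -2.02 in uninjured arteries, -0.95, -1.60 and -2.29 at day 1 and -1.93, -1.45 and -1.45 at day 7. It gave -2.45, -2.21 and -1.83 at day 14 and -2.45, -2.54, -2.52 and -3.20 at day 28. Day 7 lay wholly above uninjured, while day 1 replicate 3 fell within the uninjured range. It was log2 1.00 ± 0.34 (SE) above uninjured both at day 1 (adjusted p = 0.0399) and at day 7 (adjusted p = 0.0262), and 0.63 at both days once slide was a block (adjusted p = 0.544 and 0.463). The day 1 call was kept in 9 of 16 fits without 1 array and ended without uninjured replicate 1 or 2, day 1 replicate 1 or 2, day 7 replicate 2 or 3, or day 14 replicate 2. At day 7 miR-376c was log2 1.53 ± 0.29 (SE) above uninjured (adjusted p = 6.94e-04), miR-376b 1.54 ± 0.40 (SE, adjusted p = 0.006) and miR-376b* 0.89 ± 0.34 (SE, adjusted p = 0.0446), none of the 3 called once slide was a block (adjusted p = 0.0898, 0.3 and 0.732). Between day 1 and day 7, both on slide 1, miR-376c was called (log2 1.24 ± 0.29 SE, adjusted p = 0.00384; 0.013 when slide 1 was fitted alone). miR-376b and miR-376a were not called (log2 0.57 ± 0.40 SE and 0.00 ± 0.34 SE).

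The remaining members called higher at day 7 were miR-329 (log2 1.07 ± 0.25 SE), miR-380-3p (1.18 ± 0.39 SE), miR-382* (1.04 ± 0.35 SE), miR-495 (1.03 ± 0.36 SE), miR-543 (1.01 ± 0.39 SE) and miR-541 (1.04 ± 0.22 SE). miR-329 was the 1 of these 6 that was also called between day 1 and day 7 (log2 0.80 ± 0.25 SE, adjusted p = 0.0212). The arrays of miR-543 and, in the miR-376 family, those of miR-376b* overlapped the uninjured ones. In uninjured arteries miR-382*, miR-543 and miR-376b* were well above background on 1 of 3 arrays and miR-380-3p on 2 of 3. These 4 therefore lay near background there, and the size of their rise is uncertain. Of the 6 only miR-541 kept its side of the threshold with slide as a block, at adjusted p = 0.05 as rounded, and it is a member near background that was tested only because day 7, where it was high, detected it, so its calls against day 7 support nothing. It lay at the floor on 2 of 3 uninjured arrays and on all 4 arrays of day 28. Its values were -4.70, -4.40 and -4.81 at day 7 and -5.79, -5.72 and -5.76 at day 14, and the groups lay apart (log2 -1.12 ± 0.22 SE, adjusted p = 0.0115; adjusted p = 0.339 with slide as a block). That call was lost without day 7 replicate 2 or day 14 replicate 2.

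Other members, many of them detected throughout, were not called at day 7. miR-410 was at -1.67, -1.58 and -0.38 in uninjured arteries and at -1.30, -1.22 and -1.17 at day 7, so that the day 7 arrays lay inside the uninjured range (log2 -0.02 ± 0.35 SE). miR-300 was at 0.03, 0.28 and 0.92 in uninjured arteries, 0.28, 0.41 and 0.36 at day 7, and -0.14, -0.43, -0.18 and -0.64 at day 28. Its day 28 arrays lay below the uninjured ones (log2 -0.76 ± 0.24 SE, adjusted p = 0.0325), a call that ended with slide as a block (adjusted p = 0.0752) and without uninjured replicate 2, uninjured replicate 3, day 28 replicate 2 or day 28 replicate 4. At day 7 the differences of miR-369-5p, miR-409-5p and miR-409-3p were log2 0.03 ± 0.33 (SE), -0.10 ± 0.35 (SE) and 0.48 ± 0.35 (SE). miR-487b, known from the wall of larger arteries, differed by -0.54 ± 0.40 (SE) and miR-485 by -0.56 ± 0.34 (SE), and neither was called. miR-381, the near relative of miR-300, had a difference of 0.56 ± 0.28 (SE, adjusted p = 0.117). miR-485* varied widely inside groups, at -2.35, -3.83 and -5.79 at day 14 and at -4.70, -4.36, -5.00 and -3.01 at day 28.

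At day 1 the members split, 3 higher (miR-494, miR-154* and miR-376a) and 3 lower (miR-299, miR-154 and miR-299*). Of all tested miRNAs 19.6% were higher, 12.8% lower and 32.4% called in all. With slide as a block the count was 0 members higher and 1 lower (all tested, 7.48% and 1.87%, 9.35% in all). Of the 21 members detected throughout 2 were higher and 2 lower (16.0% higher and 33.3% in all among the 219), and the arrays of 5 members lay wholly apart (all tested, 47.0%). This split depended on the scaling. Relative to a 75th percentile of every mouse probe 0 members were higher and 7 lower (17 and 95 of all 321 tested miRNAs). After quantile normalization 0 members were higher and 6 lower (25 and 72 of all tested). With these scalings the median of all tested miRNAs went from 0.24 to -0.31 and -0.08. The count of called members was 12 without day 1 replicate 3 and 11 without uninjured replicate 3. In the fit over all 16 arrays, day 7 against day 1 had 9 members higher and 1 lower. Of all tested miRNAs 18.7% were higher, 24.6% lower and 43.3% called in all. The same members' counts, 9 and 1, came with slide as a block (all tested, 19.9% higher, 24.0% lower, 43.9% in all), and 15 members had arrays wholly apart (all tested, 62.0%). Of the 21 members detected throughout, 6 were higher and 0 lower in that step (19.6% higher and 42.0% in all among the 219). When slide 1 was fitted alone, 8 members were higher and 2 lower, and the share of all tested miRNAs was not counted. In that fit miR-154* was not called (adjusted p = 0.0561), and miR-485* was called lower (log2 -1.73, adjusted p = 0.00229).

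At day 14, in the fit over all 16 arrays, 6 members were higher than in uninjured arteries and 0 lower. This is near the 20.2% of all tested miRNAs called higher (19.0% lower, 39.3% in all). Of the 21 detected throughout 5 were higher and 0 lower (20.1% higher and 40.2% in all among the 219). With slide as a block the members' counts were again 6 and 0 (all tested, 21.5% higher, 18.7% lower, 40.2% in all), and 6 had arrays wholly apart (all tested, 50.8%). They were miR-379, miR-411, miR-299, miR-299*, miR-377 and miR-494, each also called higher at day 7. Both comparisons share the uninjured arrays. When slide 2 was fitted alone, 5 members were higher and 0 lower at day 14, without miR-411 (adjusted p = 0.0524). The share of all tested miRNAs was not counted in that fit. In the step from day 7 to day 14 the members called lower were miR-377, miR-541 and miR-299* (3 of 33, against 6.23% of all tested lower, 4.05% higher and 10.3% in all). Of the 21 detected throughout 2 were lower and 0 higher (5.94% higher and 11.0% in all among the 219). The arrays of 23 members lay wholly apart, 22 downward, against 35.8% of all tested miRNAs. With slide as a block limma called 0 members and 0 of all tested miRNAs, with 2 members and 29 miRNAs at an unadjusted p under 0.05. The count without a block was 7 without uninjured replicate 3, 5 without day 1 replicate 1 or day 1 replicate 3, and 0 without day 7 replicate 2 or day 14 replicate 2. From day 14 to day 28 the signal of 6 members fell and that of 0 rose, while 5.61% of all tested miRNAs were lower, 9.66% higher and 15.3% called in all. Of the 21 detected throughout 5 fell (14.2% higher and 19.6% in all among the 219), and 11 members had arrays wholly apart (all tested, 24.3%). These were miR-379 (log2 -1.16 ± 0.22 SE), miR-299 (-1.05 ± 0.18 SE), miR-411 (-0.90 ± 0.21 SE), miR-377 (-0.83 ± 0.23 SE), miR-154 (-0.79 ± 0.21 SE) and miR-299* (-0.76 ± 0.15 SE), of which all but miR-154 were called with slide as a block (all tested, 2.49% lower, 6.23% higher, 8.72% in all). Within slide 2 alone miR-299, miR-377 and miR-154 were not called (adjusted p = 0.0672, 0.0542 and 0.0773), and miR-377 was not called either without any 1 day 14 array or day 28 replicate 3 or 4.

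At day 28 few members were called against uninjured, 1 higher (miR-494) and 1 lower (miR-300), against 16.8% and 9.35% of all tested miRNAs (26.2% in all). Both are among the 21 detected throughout (18.7% higher and 28.3% in all among the 219), and 2 members had arrays wholly apart (all tested, 31.8%). With slide as a block limma called 0 members (all tested, 13.4% higher, 3.74% lower, 17.1% in all). An unadjusted p under 0.05 was reached there by 6 of 33 members and by 100 of all 321 tested miRNAs. The count ran from 0, without uninjured replicate 2 or day 28 replicate 4, to 4, without uninjured replicate 1, and it was 1 without day 1 replicate 1 or 2, day 7 replicate 1 or 3, any 1 of the day 14 arrays or day 28 replicate 1, 2 or 3. The median difference of the tested members from uninjured was log2 -0.26, with 9 of 33 above 0, and that of all tested miRNAs was 0.03. With another background method (normexp) 0 members were called higher and 8 lower (all tested, 31 higher and 46 lower). Over all 5 groups the F test called 21 of the 33 members, close to the 61.1% of all tested miRNAs (with slide as a block 14 members, and 51.7% of all), led by miR-299 (adjusted p = 4.18e-07), miR-299* (adjusted p = 1.08e-06), miR-379 (adjusted p = 2.28e-05), miR-377 (adjusted p = 3.84e-05), miR-411 (adjusted p = 7.93e-05) and miR-494 (adjusted p = 0.00124).

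Members also moved together between animals of 1 group. In the uninjured group replicate 3 gave the highest signal for 31 of the 32 tested members with a single highest array, whereas it did so for 51% of all such miRNAs. The 21 members detected throughout stood a median of log2 0.88 higher on it than the mean of the other uninjured arrays (range -0.11 to 1.51), and the 219 miRNAs detected throughout -0.02. At day 1 replicate 1 was highest for 29 of 32 members (57.5% of all) and replicate 3 lowest for 29 of 32. At day 14 replicate 1 was lowest for 28 of 32 members, and at day 28 replicate 4 was lowest for 22 of 30. How many of all miRNAs were lowest on these arrays was not counted. Of all miRNAs with a single highest array, 24.6% were highest on day 1 replicate 3, 41.8% on day 14 replicate 1 and 23.8% on day 28 replicate 4. The median SD of the 21 members was 0.51 in the uninjured group and 0.51 at day 1, but 0.12 for day 7, 0.31 for day 14 and 0.30 for day 28. For all 219 miRNAs it was 0.22, 0.21, 0.15, 0.19 and 0.28. The wide spread in uninjured arteries and at day 1 enters every difference from those groups. Without uninjured replicate 3, 21 members were called at day 7 and 9 at day 14.

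Markers of other cell types moved along with these arrays and groups. The mean of the 21 members was -2.91, -2.81 and -1.96 on the uninjured arrays, and the log2 of the summed signal of 7 neuronal markers was 0.75, 0.91 and 1.71. At day 1 the cluster means were -1.93, -2.28 and -2.84 and the neuronal sums 1.99, 1.85 and 1.04. In both groups the array with the highest cluster mean thus had the highest neuronal sum. The summed signal of the other miRNAs of the locus had the same order, at 1.1, 1.3 and 1.99 in uninjured arteries and 1.86, 1.58 and 1.03 for day 1. The erythroid sum was lowest on the same arrays, at 5.34, 5.42 and 4.02 and then 4.79, 5.17 and 5.98. The smooth muscle sum went opposite ways in the 2 groups. It was lowest on uninjured replicate 3 (1.83, against 2.67 on both others) but highest on day 1 replicate 1 (2.37, against 1.56 and 1.79). At day 7 the cluster means were -1.96, -1.76 and -1.83, overlapping the highest uninjured and day 1 arrays, while the neuronal sums were low, -1.12, -0.97 and -1.38. At day 14 the means were -2.43, -2.16 and -2.21 with sums of -1.53, 0.08 and 0.10, and at day 28 the means were -2.75, -2.76, -2.77 and -3.09 with sums of 0.49, 1.11, 0.49 and -0.30. Of the 6 tested neuronal markers 5 were lower at day 7 than in uninjured arteries and 0 higher, also with slide as a block, and the defining marker miR-9 lay at the floor in every group but day 1.

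The mesenchymal list of miR-199a-3p, miR-199a-5p and miR-214 changed with the groups in another way. Its log2 sum was 3.21 to 3.54 in uninjured arteries and 2.38 to 2.74 at day 1. Day 7 gave 4.45 to 4.60, day 14 gave 4.03 to 4.33 and day 28 gave 3.91 to 4.07. Of its 3 members 3 were higher at day 7 and 2 were lower at day 1 (2 and 1 with slide as a block), the days on which miR-299 was high and low. The leukocyte sum was 0.69 to 0.98 in uninjured arteries, 4.68 to 4.82 at day 1 and, for day 7, 3.72 to 4.12. The smooth muscle sum was 1.83 to 2.67 in uninjured arteries and 0.64 to 0.86 at day 7. The endothelial and erythroid sums at day 7 were 3.62 to 3.94 and 3.92 to 4.79, against 3.28 to 3.37 and 4.02 to 5.42 in uninjured arteries, and the striated muscle sum was 1.95 to 2.86 against 2.99 to 3.61. On day 28 replicate 2 the epithelial sum was 0.76, far above -3.35 to -2.92 on the other day 28 arrays. The part of these marker changes in the results on the cluster was not tested.

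**Figure D3:**
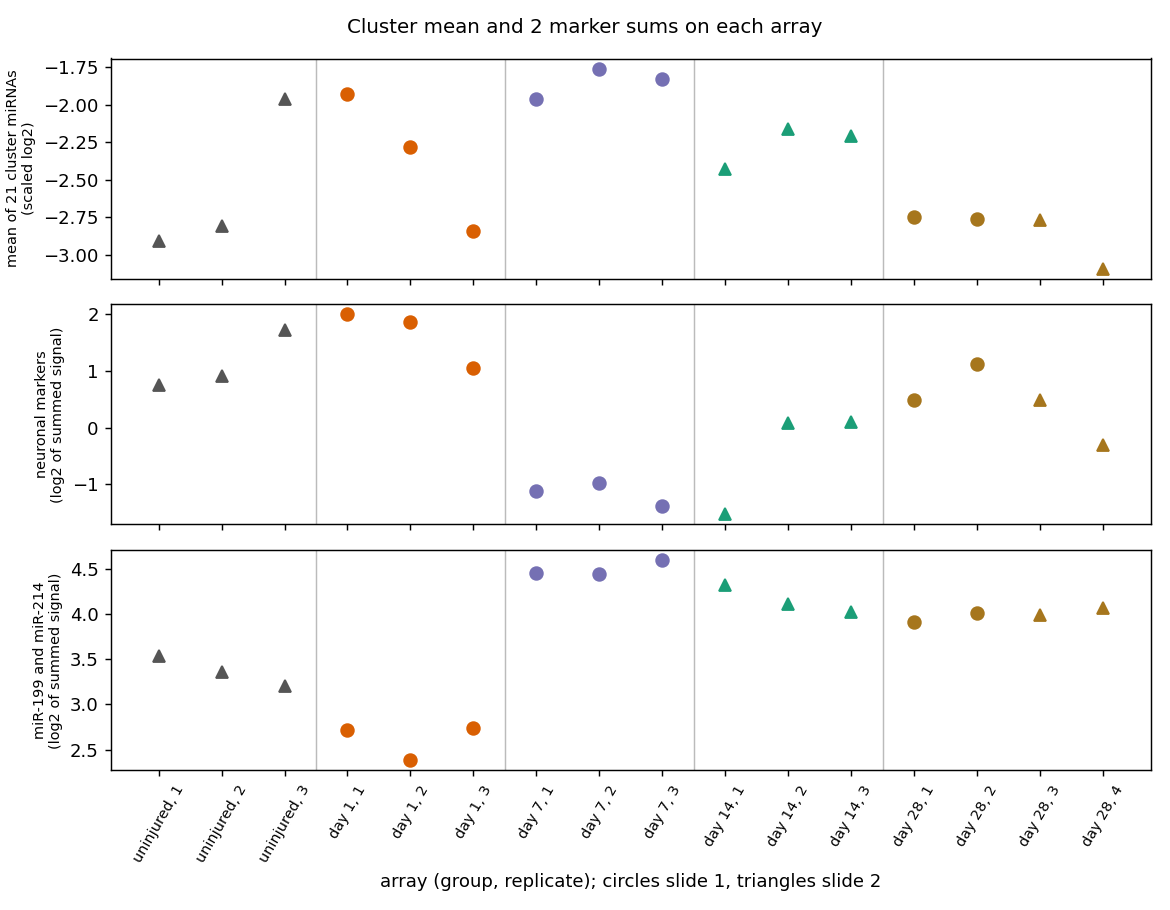
For each of the 16 arrays, the mean scaled log2 signal of the 21 cluster miRNAs detected throughout (top), the log2 summed signal of the neuronal markers (middle) and that of miR-199a-3p, miR-199a-5p and miR-214 (bottom); circles are slide 1 and triangles slide 2. Uninjured replicate 3 and day 1 replicate 1 are high in the top and middle panels, and day 7 is high in the top and bottom panels but low in the middle one.

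Both arms were tested for 9 of the 11 hairpins with 2 members, and their day 7 differences are given side by side without a test between arms. The median gap between arms was log2 0.54. It was smallest in the miR-299 hairpin (0.12) and largest in the miR-154 hairpin (2.54), where the second miR-154 probe would make it smaller. In the miR-376b hairpin the 5p arm differed from uninjured by 0.89 and the 3p arm by 1.54, and in the miR-376a hairpin by 0.35 and 1.00. The miR-382 hairpin gave 0.50 for the 5p and 1.04 for the 3p arm, the miR-409 hairpin -0.10 and 0.48, and the miR-300 hairpin -0.27 and -0.06. For the miR-485 hairpin the values were -0.56 and -0.33. The miR-411 hairpin went the other way, with 1.46 for the 5p and 1.17 for the 3p arm. Over single members, 13 of 20 tested 3p arms were higher and 1 lower at day 7, and 5 of 13 tested 5p arms were higher and 0 lower, where 27.4% of all tested miRNAs were higher. In the blocked fit 4 of the 20 3p arms and 4 of the 13 5p arms were called higher and 0 lower (all tested, 16.5% higher). The 5p arms called higher in both fits include miR-541, which was tested only through day 7. Of those called higher in the main fit, miR-376b* (5p) and miR-154*, miR-380-3p, miR-382* and miR-543 (3p) passed the filter only through injured groups. Members detected throughout were not counted by arm. Since the arms of 1 hairpin come from 1 precursor, they are not independent.

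**Figure D4:**
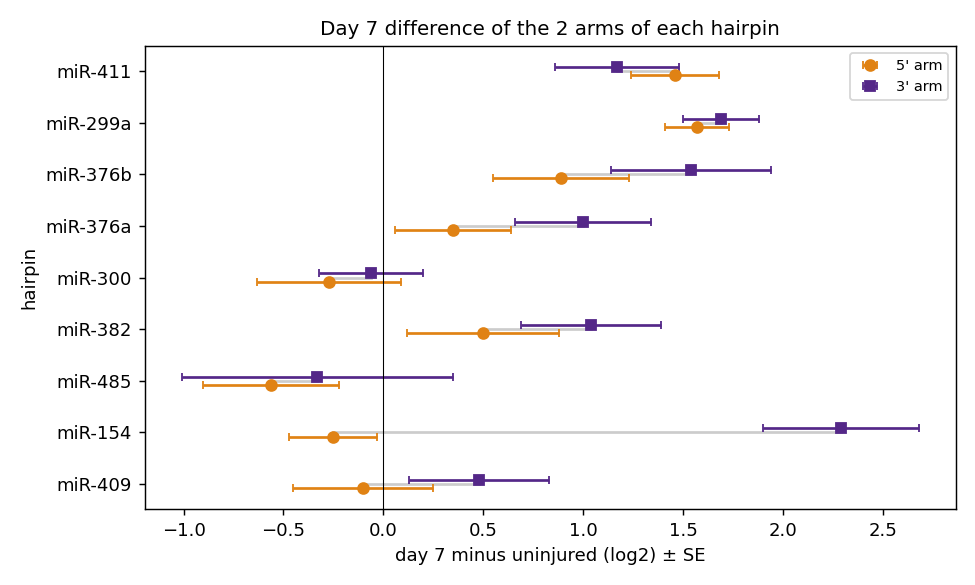
Day 7 minus uninjured difference (log2, bars are SE) of the 5p arm (circles) and the 3p arm (squares) of the 9 hairpins of which both arms were tested. The arms lie close together for miR-299 and are farthest apart for miR-154, where the 5p arm is at -0.25 and the 3p arm at 2.29.

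Position along the cluster was looked at after the values had been seen, and is given as a description. Of the 11 tested members from hairpins 1 to 10, 10 were higher and 1 lower at day 7 (median log2 1.18). From hairpins 11 to 20, 5 of 12 were higher (median 0.53), and from hairpins 21 to 30, 3 of 10 (median 0.01), namely miR-154*, miR-377 and miR-541. Of all tested miRNAs 27.4% were higher. Because miR-541 was tested only through day 7, where it was high, its call supports nothing. miR-380-3p, miR-543, miR-376b*, miR-382* and miR-154*, also counted as higher, passed the filter only through injured groups, day 7 among them. Members detected throughout were not counted by position. In the blocked fit the counts higher were 5, 0 and 3, with miR-541 again among the last, and 0 were lower (all tested, 16.5% higher and 12.1% lower). At day 14 the called members numbered 5 among hairpins 1 to 10, 0 among hairpins 11 to 20 and 1, miR-377, among hairpins 21 to 30 (all tested, 20.2% higher). Neighbours could differ: miR-323-3p, called lower at day 7, lies 3.45 kb from the start of the cluster, between miR-380-3p at 2.74 kb and miR-329 at 4.42 kb, both called higher, and none of these 3 calls held with slide as a block (adjusted p = 0.0992, 0.577 and 0.201).

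**Figure D5:**
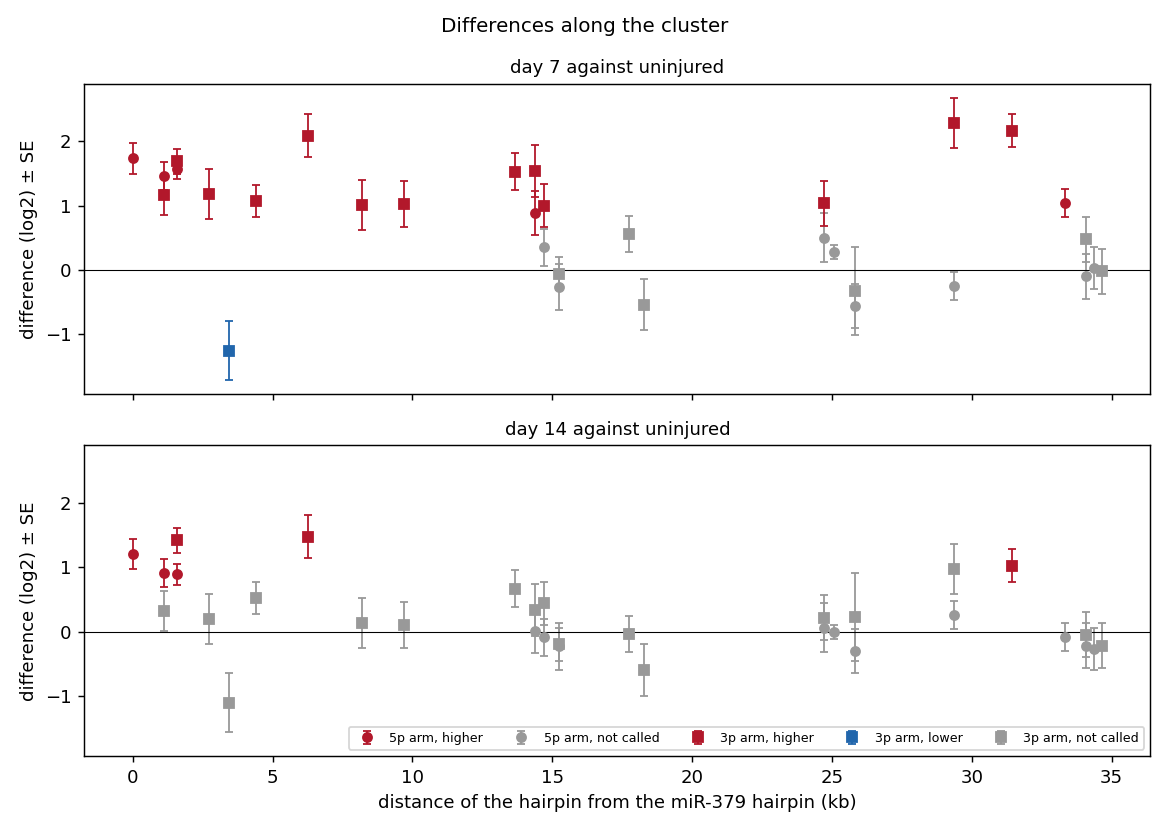
Difference from uninjured (log2, bars are SE) at day 7 (top) and day 14 (bottom) against the distance of each hairpin from the miR-379 hairpin in kb, for the 33 tested members; colour marks the call and shape the arm. At day 7 the first 10 kb hold 10 members called higher and miR-323-3p called lower, and at day 14 the calls lie in the first 7 kb and at miR-377.

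The other miRNAs of the locus lie before the cluster on the chromosome in the miR-127, miR-136 and neighbouring groups. Of 23 such miRNAs on the array 14 were tested, and at day 7 5 were higher and 1 lower, with a median of log2 0.25 and a range from -0.99 to 1.22, near the 27.4% higher of all tested miRNAs. limma called 0 of the 14 at day 7 in the blocked fit, with a median of -0.28. At day 14 3 were higher and 0 lower, near the 20.2% higher of all tested, and at day 28 0 were higher and 1 lower (all tested, 16.8% and 9.35%). Another 8 miRNAs of the cluster itself that are outside the 41, among them miR-654-3p and miR-758, were below the level needed for a test in every group.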

How the data were processed

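The deposited scanner files, 1 per sample, hold the intensity of 13715 features from 1-colour arrays, background-handled by the authors in Agilent Feature Extraction 9.5.1.1, per the file headers. The authors' deposited value table, a gene-level intensity with 610 mouse miRNAs, served as an alternative. The processed signal was averaged per probe, leaving out the 3.48% of spots marked as outliers, scaled on each array to the 75th percentile of the 395 mouse probes well above background on all arrays, floored at 0.0181, and put on a log2 scale. The brightest probe stood for a miRNA. A probe was well above background when at least 50% of its spots were, and a miRNA was tested when this held on every array of 1 group. Files were read with the R package data.table, version 1.17.8. In R 4.3.3, limma 3.58.1 fitted 1 model over the 5 groups with 11 residual and 1.98 prior degrees of freedom. p-values were Benjamini-Hochberg adjusted over the 321 tested miRNAs, and 0.05 was the threshold. The series design speaks of animals, so p-values measure the spread between them.

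Arms of older names were taken from the miRBase accessions in the scanner files, and sequences from RefSeq. Named are, per comparison and direction, up to 5 called members with the largest difference, and the 6 members with the smallest p in the F test; others are named as lists or as chosen after their values were seen (miR-410, miR-485* and the neighbours of miR-323-3p among them). The members, marker lists and tests were chosen with earlier results of these data known. The pipeline was tested on simulated data. Alternatives were other scalings, background, floor, filters, probe summary, slide and replicate blocks, and leaving out each array.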

Additional observations from a re-analysis of the deposited data

Results flagged for a closer look

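In the group of 4 arrays at day 28, each of the 12 members named by rule was checked for 1 array far from the rest, and 1 was found: miR-376a on day 28 replicate 4, at a scaled log2 signal of -3.20, with a gap to the next array of 0.885 of the range. About 1 in 20 groups gives such a gap by chance. That array was the lowest of its group for 22 of 30 members, a count that was not set against all miRNAs.

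The effect of injury differed between day 1 and day 7 for miR-299 (log2 2.88), miR-299* (2.21), miR-379 (2.18), miR-377 (1.96), miR-411 (1.77) and miR-323-3p (-1.66), in the test of the difference itself and within slide 1. It differed between day 7 and day 14 for miR-377 (-1.14), miR-541 (-1.12) and miR-299* (-0.68), and with slide as a block these 3 were not called. miR-541 was tested only because the day 7 arrays, where it was high, detected it, so that its difference supports nothing. Between day 14 and day 28 it differed for miR-379 (-1.16), miR-299 (-1.05), miR-411 (-0.90), miR-377 (-0.83) and miR-154 (-0.79).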

How the results depend on the processing

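The 33 named differences gave 569 values under the alternatives, and 445 kept their direction and call, 123 lost the call and 1 changed direction. That was miR-299 at day 1, at 0 with the mean over its probes, of which 3 are dim. Other values are counts of called members. At day 1 (6 in the report) the count was 1 without scaling or with slide as a block, 2 with normexp background, and 4 to 12 when 1 array was left out. At day 7 (19) it was 12 with normexp, 10 for members detected throughout, 8 with slide as a block, and 12 to 21 without 1 array. At day 14 (6) it was 5 within 1 slide and 6 to 9 without 1 array. At day 28 (2) it was 1 with the percentile over all probes, no scaling, a floor 2 times as high, the mean over probes or slide as a random block, and 0 without a filter, with slide as a block, within 1 slide or with only the 2 groups. It was 8 with normexp and 7 with the authors' value table, 0 of them higher in either, and 0 to 4 without 1 array. From day 1 to day 7 (10) it was 16 with the percentile over all probes or quantile normalization, and 8 to 12 without 1 array. From day 7 to day 14 (3) it was 1 with the percentile over all probes, 5 with normexp or the higher floor, 15 with only the 2 groups, 0 without scaling, with the value table or with slide as a block, and 0 to 7 without 1 array. From day 14 to day 28 (6) it was 0 without scaling, 3 within 1 slide, and 4 to 7 without 1 array. In the F test (21) it was 12 without scaling, 13 without a filter or for members detected throughout, and 14 to 25 without 1 array. Without both uninjured replicate 3 and day 14 replicate 1, chosen after the data were seen, it was 11 at day 1, 21 at day 7, 9 at day 14 and 27 in the F test. The replicate numbers share only a number, since 0 of 16 arrays correlated best with an array of the same number, and the replicate block gave 0 called members at day 28, 3 from day 14 to day 28 and 14 in the F test. The replicate block with slide as a block gave 0 at day 1, 2 at day 7, 0 at day 28, 0 from day 7 to day 14, 0 from day 14 to day 28 and 9 in the F test. The causes were not tested. Signal over background limits the 20 members not detected on every array, and 3 or 4 arrays a group limit the precision of all.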
